A study of Homo sapiens with 60 samples.

Results

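Transcript levels were compared between human embryonic kidney (HEK293-EBNA1-6E) cells that lack ALG6 and UGGT2 (ALG6/UGGT2-/-) and the unmodified parental line (WT), with 3 biological replicates of each. Of the 42141 genes listed, the 14211 with at least 1 CPM (counts per 1000000) in at least 3 of these 6 libraries were tested. The whole experiment holds 15 libraries of 5 lines, and the others are ALG6-/-, ALG6/UGGT1-/- and ALG6/UGGT1/UGGT2-/- cells. The knockouts were made with CRISPR/Cas9, every line was grown for 48 hr before RNA was taken, and poly(A) RNA was sequenced. Each knockout line was expanded from colonies of single cells and each genotype is represented by 1 line, so the genotype and the properties of that line cannot be told apart here. The labels name no treatment. The p-values below measure the spread between replicate cultures of the same lines.

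N-glycans are built on the lipid dolichol as a branched mannose oligosaccharide that is capped with glucoses and then transferred to nascent proteins in the endoplasmic reticulum (ER). ALG6 is the glucosyltransferase that adds the first of these glucoses, so that without it proteins receive glycans that carry none. UGGT1 and its homolog UGGT2 are folding sensors that put a single glucose back on the glycan of a misfolded protein, which returns it to the lectin chaperones calnexin and calreticulin. In ALG6/UGGT2-/- cells reglucosylation can thus come only from UGGT1. Cells answer misfolding in the ER through the unfolded protein response, whose branches run through ATF6, IRE1 with XBP1, and PERK with ATF4, the last of which also responds to amino acid shortage.

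The libraries held 24420000 to 26180000 reads for ALG6/UGGT2-/- cells and 24870000 to 25400000 for WT cells, as estimated from the smallest step between CPM values. WT replicate 3 and ALG6/UGGT2-/- replicate 1 stood apart from the other 4 libraries. Their median ratio to the mean library was 0.89 and 0.96, against 1.04 to 1.05 in the rest, and the deviations of their genes rose with GC content (Spearman's rho of 0.50 and 0.46 across genes) where those of ALG6/UGGT2-/- replicate 3 fell with it (-0.61). The fold changes themselves had a rho of -0.29 with GC content and 0.16 with transcript length, both across genes, which are not independent. Calls are therefore given on the CPM values as deposited, with those lost or gained after rescaling each library by its median ratio, and the main counts also without the 2 libraries. The 25 genes listed as typical of HEK293 cells had a summed level of 1112 to 1160 CPM in ALG6/UGGT2-/- and 1001 to 1029 CPM in WT cells, and 13 of them were tested. CDH6, ELAVL4 and DBH of that list were at 0 throughout. Of the markers of other cells, 2 of 11 blood, 3 of 10 fibroblast and 0 of 8 endothelial genes reached the filter, and PTPRC, HBB, EMCN, CLDN5 and THY1 were at 0 in all 6 libraries. Of these markers 1 blood gene fell, and 1 fibroblast gene, the matrix proteoglycan LUM, rose by 1.19 on the log2 scale from 1.1 CPM or less. In bulk RNA, fewer cells of a kind and less RNA per cell cannot be told apart.

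ALG6, the first targeted gene, was lower in the knockout line. Its level was 3.55, 4.59 and 5.87 CPM in ALG6/UGGT2-/- replicates 1 to 3 and 15.6, 14.6 and 12.7 CPM in WT replicates 1 to 3. The groups did not overlap, and the log2 fold change was -1.54 (SE 0.19, n = 3 per line, limma adjusted p = 0.0111; -1.57 and 0.00264 after rescaling). UGGT2, the second targeted gene, stood at 11.2, 14.9 and 17.8 CPM in ALG6/UGGT2-/- cells and at 22.8, 19.2 and 12.8 CPM in WT cells. These ranges overlapped, and the log2 fold change of -0.29 (SE 0.26) missed the threshold (adjusted p = 0.555, limma). It passed once values were corrected for transcript length and GC content (-0.43, limma adjusted p = 0.0346). That setting called 1233 of 13065 genes higher and 1094 lower, beside 438 and 466 of 14211 without it. The lowest WT value of UGGT2 was that of replicate 3. An edited gene can still be transcribed, so a transcript level does not measure the loss of the protein. UGGT1, which was left intact in this line, was listed at 59.5, 77.0 and 77.6 CPM in ALG6/UGGT2-/- and 78.3, 79.8 and 43.1 CPM in WT cells. Its log2 fold change was 0.13 (SE 0.26, limma adjusted p = 0.814).

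Across all genes, 438 were higher and 466 lower in ALG6/UGGT2-/- cells at an adjusted p under 0.05 (3.08% and 3.28% of those tested), and such genes are said below to have risen or fallen. After rescaling, 312 rose and 366 fell (2.20% and 2.58%), and 548 genes were called both ways, 247 of them higher. The changes were mostly modest, with a median absolute log2 fold change of 0.69 among called genes, and 196 exceeded 1, of which 98 were higher. All 904 called genes had replicates that did not overlap between the lines, as did 31.7% of all genes tested. The number called rested on single libraries. It was 319, 83 and 102 without ALG6/UGGT2-/- replicate 1, 2 or 3, and 160, 116 and 1799 without WT replicate 1, 2 or 3. Leaving out both WT replicate 3 and ALG6/UGGT2-/- replicate 1 gave 5727 calls (2731 higher and 2996 lower, 19.2% and 21.1% of genes), among them all 904. That choice followed the data and kept 2 libraries of each line, all of them also in the full fit. The recovery of the 904 is therefore no separate support.

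**Figure D1:**
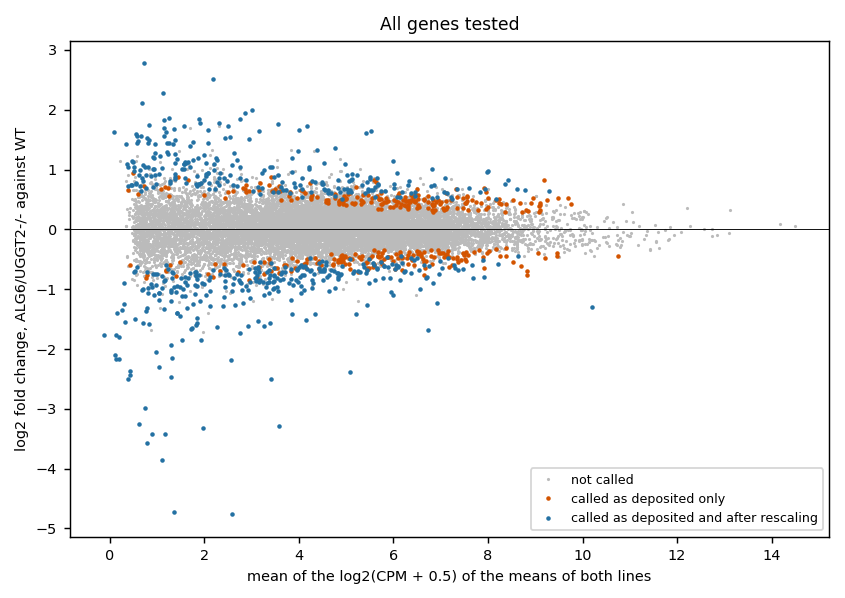
Log2 fold change of ALG6/UGGT2-/- against WT cells (vertical axis) for each of the 14211 genes tested, against its mean level as log2(CPM + 0.5) (horizontal axis). Gray points were not called, orange points were called on the deposited values alone and blue points also after rescaling. The falls reach further from 0 than the rises.

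The largest changes were picked among genes called both ways, without overlap between the lines and with at least 5 CPM in the higher line. Of these, the largest falls were to levels near 0. ZNF22, a zinc finger gene, stood at 0.0382, 0.123 and 0.0389 CPM in ALG6/UGGT2-/- cells and 9.09, 6.89 and 7.26 CPM in WT cells (log2 fold change -3.86 on the log2(CPM + 0.5) scale, SE 0.15, limma adjusted p = 0.000312). GSTM4, a glutathione S-transferase with close paralogs that can share its reads, was listed at 0 in all 3 knockout libraries and at 4.67, 6.11 and 5.55 CPM in WT cells. CTSZ, the lysosomal carboxypeptidase cathepsin Z, stood at 0, 0.0409 and 0.155 CPM against 5.23, 5.67 and 5.71 CPM (-3.42, SE 0.14). In these genes, and in SPATC1L (0.0764, 0.205 and 0.272 CPM against 5.79, 6.85 and 7.86 CPM, -3.42), the knockout line was close to the limit of detection in every replicate. CLIP3, a microtubule-associated trafficking protein, fell from 11.3 to 12.4 CPM in WT cells to between 0.688 and 0.819 CPM (-3.32). POMT1, which starts O-mannosyl glycans in the ER, fell by 3.29 on the log2 scale, with 3.17, 3.89 and 2.88 CPM in ALG6/UGGT2-/- and 34.8, 37.0 and 37.8 CPM in WT cells. Its log2 fold change was larger than that of ALG6. Further falls were of HES5 (-2.50), a Notch target, DDN (-2.47), a postsynaptic protein, CBS (-2.38), TEX14 (-2.19), a component of germ cell bridges, NDUFA4L2 (-1.85), a hypoxia-induced mitochondrial protein, and NMB (-1.73), the peptide neuromedin B. CXCR4, the receptor of the chemokine CXCL12, was the most abundant of the 15, with 63.8, 59.7 and 53.3 CPM against 187, 205 and 177 CPM (-1.68). CSRP1, a LIM-domain protein of the actin cytoskeleton (-1.67), and SECTM1 (-1.65) completed the 15, and all of them were called after rescaling.

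The largest rises were smaller and began from low levels. IFI16, a nuclear DNA sensor, stood at 8.25, 10.6 and 12.1 CPM in ALG6/UGGT2-/- cells and at 1.65, 1.69 and 0.918 CPM in WT cells (log2 fold change 2.50, SE 0.23, limma adjusted p = 0.00438). KLHDC7B, a kelch-domain protein, rose from 3.35 to 3.58 CPM up to 13.9 to 16.5 CPM (1.99), and IGLON5, a neuronal adhesion molecule, from 2.57 to 3.54 CPM up to 12.6 to 14.9 CPM (1.94). The orphan receptors GPR173 (1.85) and GPR50 (1.78) and the calcium-binding S100P (1.84) followed, with NAP1L2 (1.77), a histone chaperone of neurons, PLCB2 (1.76), a phospholipase C, and MAL2 (1.72), a protein of apical transport. The rule that picked these genes required the lowest knockout replicate to be above the highest WT replicate. BMP2, a bone morphogenetic protein, stood at 28.6, 32.9 and 34.6 CPM against 10.3, 10.3 and 7.58 CPM (1.72, SE 0.16). ID3, an inhibitor of basic helix-loop-helix factors, stood at 85.8, 79.1 and 76.0 CPM against 24.1, 22.99 and 29.1 CPM (1.65, SE 0.12). TNFRSF9, the costimulatory receptor 4-1BB, rose from 21.1 to 27.1 CPM up to 72.8 to 77.8 CPM (1.62). GDAP1L1 (1.66), COL6A3 (1.66), a chain of collagen VI, and ELSPBP1 (1.64) were the rest.

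**Figure D2:**
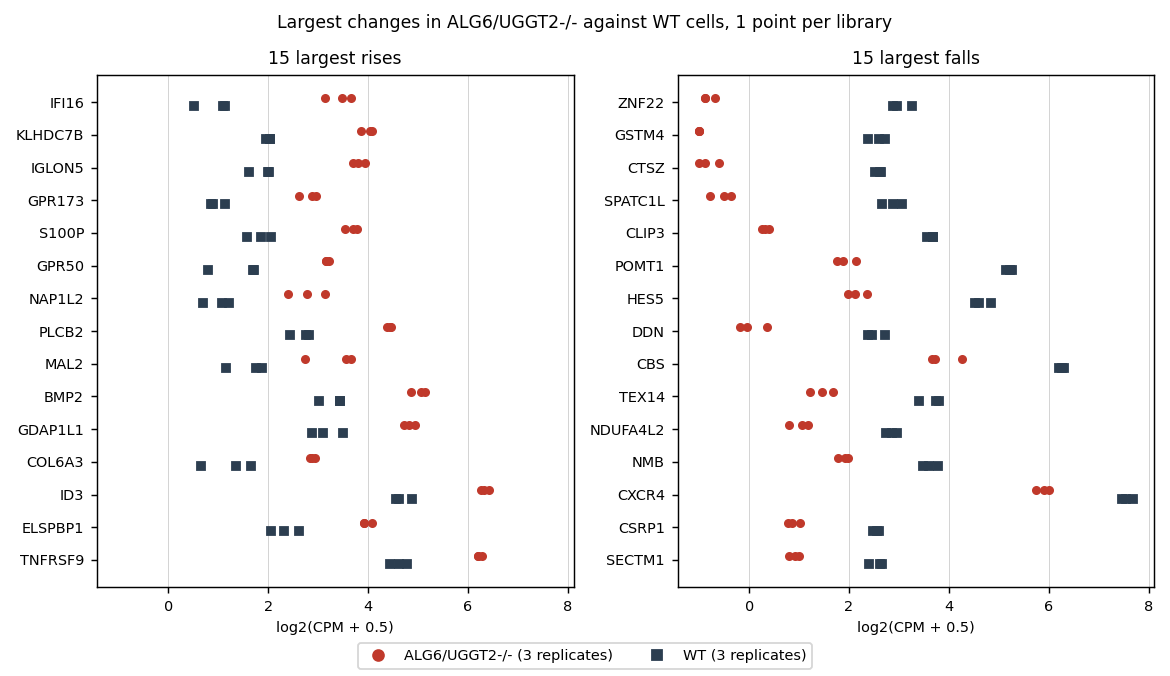
Levels as log2(CPM + 0.5) of the 15 largest rises (left) and the 15 largest falls (right), with red circles for the 3 ALG6/UGGT2-/- replicates and dark squares for the 3 WT replicates. The genes were chosen to have groups that do not overlap. ZNF22, GSTM4, CTSZ and SPATC1L sit below 0 in every knockout replicate.

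Few genes of the pathway that ALG6 belongs to were called. Of all genes 3.08% rose and 3.28% fell, and at those shares short lists would hold few calls. Of 28 tested genes for building the dolichol-linked glycan, ALG6 itself was the 1 that fell and 0 rose, with a median log2 fold change of -0.08 beside 0.03 over all genes. ALG8, which adds the glucose after that of ALG6, stood at 32.1, 33.0 and 33.0 CPM in ALG6/UGGT2-/- and 40.7, 39.8 and 36.8 CPM in WT cells (-0.25, limma adjusted p = 0.128). The mannosyltransferase ALG9 (-0.24) and DPAGT1 (-0.23), which starts the glycan, also missed the threshold. None of the 12 tested subunits of the oligosaccharyltransferase, which transfers the glycan, was called. KRTCAP2 (-0.32, limma adjusted p = 0.0946) and DDOST (-0.28, 0.105) lay below WT without passing the test. The calnexin cycle had 0 of 12 genes called. The glucosidase II subunit GANAB stood at -0.26, the calnexin homolog CLGN at 0.38 and calreticulin (CALR) at -0.17, with adjusted p of 0.116, 0.15 and 0.374. CALR read 441, 397 and 379 CPM against 425, 434 and 508 CPM, so that its ranges overlapped. Among 23 genes for N-glycan processing in the Golgi, 1 rose and 0 fell. It was MANEA, an endomannosidase that can remove glucosylated mannose, at 27.5, 28.6 and 30.0 CPM against 19.7, 17.0 and 14.1 CPM (0.75, SE 0.14, limma adjusted p = 0.0315, and 0.0178 after rescaling). Without the 2 libraries that stood apart, 19.2% of all genes were higher and 21.1% lower. The calnexin cycle then had 2 of 12 higher and 7 lower, and the oligosaccharyltransferase 2 and 5. Genes for building the dolichol-linked glycan had 4 of 28 higher and 4 lower.

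The chaperones controlled by ATF6 were not higher. Of 15 tested genes 0 rose and 1 fell, the disulfide isomerase PDIA4, with 208, 199 and 189 CPM in ALG6/UGGT2-/- and 292, 306 and 257 CPM in WT cells (log2 fold change -0.52, SE 0.09, limma adjusted p = 0.0239; -0.55 and 0.0381 after rescaling). The median was -0.09, beside 0.03 over all genes, of which 3.08% rose and 3.28% fell. PDIA4 lies in a stretch of chromosome 7 where most genes lay below WT, as given further below. MANF, a secreted ER stress protein (-0.30), and HYOU1, an ER chaperone of the HSP70 family (-0.24), lay below WT without passing the test, and CRELD2 lay above it (0.25). Of 28 targets of IRE1 and XBP1, 1 rose, XBP1 itself, and 0 fell, with a median of -0.01. This gene lies on chromosome 22, where 89.2% of genes lay above 0, as given further below. XBP1 stood at 620, 577 and 573 CPM against 383, 387 and 466 CPM (0.52, SE 0.10, adjusted p = 0.03), and its call was lost after rescaling (0.147), where the translocon subunit SSR3 was called instead (-0.54, adjusted p = 0.0391). Among 28 genes of degradation from the ER 2 fell and 0 rose, namely MAN1B1, the ER mannosidase that marks glycoproteins for disposal (-0.54), and AUP1, which recruits a ubiquitin-conjugating enzyme (-0.44), neither of which was called after rescaling.

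Targets of PERK and ATF4 moved most among the stress branches. Of 36 tested genes 12 rose and 1 fell, beside 3.08% and 3.28% of all genes, and the list's median was 0.33. After rescaling 3 rose and 1 fell, with a median of 0.30. NUPR1, a small stress-induced chromatin protein, stood at 42.6, 41.7 and 44.7 CPM in ALG6/UGGT2-/- and 16.1, 13.8 and 20 CPM in WT cells (log2 fold change 1.36, SE 0.15, limma adjusted p = 0.00724). The factor ATF3 stood at 796, 726 and 770 CPM against 388, 389 and 532 CPM (0.82, SE 0.13, adjusted p = 0.0225). PPP1R15A, which returns the translation factor eIF2 to its active state, stood at 447, 405 and 424 CPM against 236, 242 and 278 CPM (0.76, SE 0.09, adjusted p = 0.00832). The groups did not overlap in these 3, as in every called gene. In each of the 3 the WT value nearest to the knockout line was that of replicate 3. The factor ATF5 (0.74), NUPR1 and PPP1R15A were the 3 also called after rescaling.

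The glutathione-degrading enzyme CHAC1 stood at 180, 164 and 162 CPM in ALG6/UGGT2-/- and 103, 102 and 130 CPM in WT cells (0.60, SE 0.11, limma adjusted p = 0.0348). ATF4 itself was at 1024, 965 and 962 CPM against 656, 645 and 760 CPM (0.52, SE 0.08), and the factor CEBPB at 216, 203 and 213 CPM against 139, 145 and 157 CPM (0.52). Neither was called after rescaling (adjusted p = 0.137 and 0.0941). The others that rose on the deposited values were CTH (0.50), which makes cysteine from cystathionine, the transporter SLC7A1 for cationic amino acids (0.48), the serine enzyme PSAT1 (0.44) and the tRNA synthetases WARS (0.50) and GARS (0.33). CBS was the 1 that fell, and it makes the cystathionine that CTH cleaves. It stood at 18.7, 12.7 and 12.2 CPM against 78.7, 73.3 and 76.9 CPM (-2.38, SE 0.17, limma adjusted p = 0.00288). CBS has a near-identical copy on the same chromosome whose reads can be mixed with its own. DDIT3, the factor CHOP that PERK signaling induces, was at 43.3, 49.8 and 49.2 CPM against 52.7, 48.9 and 42.8 CPM (-0.02, adjusted p = 0.952), and the pseudokinase TRIB3 lay at 0.40 (0.0895).

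The regulatory sequence that ATF4 binds together with C/EBP factors, written TGATGNAAN, was searched on both strands in RefSeq promoters of GRCh38.p14, from 250 bases before to 50 bases after the start of the gene. It was present in 3.61% of 35116 promoters and in 10 of the 30 list members with a promoter entry. It was in 4 of the 11 such genes that rose and in 6 of the 19 that did not. The 4 are shown in capitals in the promoters of genes that rose, each 5′ to 3′ on the strand of its gene: CHAC1 (chr15:40953221-40953520, plus strand), ATF3 (chr1:212565157-212565456, plus strand), SLC7A1 (chr13:29595639-29595938, minus strand) and GARS (GARS1 in RefSeq, chr7:30594628-30594927, plus strand). The ER stress element, CCAAT and CCACG with 9 bases between them, was in 0.0769% of promoters, in 5 of 15 ATF6 targets (HSPA5, HSP90B1, CALR, PDIA6 and CRELD2), of which 0 rose, and in 2 of 23 IRE1 and XBP1 targets. These are SERP1, which was not called, and XBP1 (chr22:28800520-28800819, minus strand), which rose and is shown last. The core element of XBP1, TGACGTG, was in 1.97% of promoters and in 5 of 23 IRE1 and XBP1 targets, none of which was called higher.
CHAC1: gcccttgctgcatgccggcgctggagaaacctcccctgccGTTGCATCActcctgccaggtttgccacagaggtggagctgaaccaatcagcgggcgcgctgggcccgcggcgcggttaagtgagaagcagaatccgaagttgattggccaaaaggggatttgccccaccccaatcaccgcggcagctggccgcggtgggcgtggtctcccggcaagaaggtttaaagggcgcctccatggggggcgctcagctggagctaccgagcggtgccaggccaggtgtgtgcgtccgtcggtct
ATF3: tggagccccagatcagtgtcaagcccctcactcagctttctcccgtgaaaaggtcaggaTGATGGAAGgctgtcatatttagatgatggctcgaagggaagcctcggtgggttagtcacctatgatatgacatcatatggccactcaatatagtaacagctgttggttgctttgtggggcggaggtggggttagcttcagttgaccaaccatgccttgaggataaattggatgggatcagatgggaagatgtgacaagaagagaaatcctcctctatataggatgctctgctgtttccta
SLC7A1: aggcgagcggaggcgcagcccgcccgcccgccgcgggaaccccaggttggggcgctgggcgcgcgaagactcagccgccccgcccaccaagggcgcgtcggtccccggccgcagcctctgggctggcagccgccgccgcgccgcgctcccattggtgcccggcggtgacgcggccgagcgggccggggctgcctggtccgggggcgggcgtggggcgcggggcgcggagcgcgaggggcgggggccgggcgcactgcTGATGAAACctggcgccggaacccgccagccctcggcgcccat
GARS: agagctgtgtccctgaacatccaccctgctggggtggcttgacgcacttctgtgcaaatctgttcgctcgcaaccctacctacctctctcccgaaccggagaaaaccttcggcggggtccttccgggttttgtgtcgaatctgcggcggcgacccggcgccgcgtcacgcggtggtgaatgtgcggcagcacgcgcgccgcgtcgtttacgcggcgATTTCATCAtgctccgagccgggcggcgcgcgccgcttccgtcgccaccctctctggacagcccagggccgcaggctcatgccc
XBP1: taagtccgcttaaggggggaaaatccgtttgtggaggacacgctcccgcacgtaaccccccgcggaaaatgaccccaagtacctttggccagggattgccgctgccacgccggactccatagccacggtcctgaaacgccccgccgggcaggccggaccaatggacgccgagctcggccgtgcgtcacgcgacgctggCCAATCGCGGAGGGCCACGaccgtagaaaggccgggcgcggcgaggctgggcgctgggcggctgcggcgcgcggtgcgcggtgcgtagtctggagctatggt
In CHAC1 the match lay on the strand opposite to the gene, 202 to 210 bases before its start, and in ATF3 on the gene's strand, 183 to 191 bases before. In SLC7A1 it lay 7 to 15 bases after the start and in GARS 26 to 34 bases before it. These are matches of letters and were not measured as sites of binding.

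Amino acid and one-carbon metabolism held several of the same genes. Of 20 enzymes of serine, glycine and folate metabolism 4 rose and 0 fell, beside 3.08% and 3.28% of all genes. Their list had a median of -0.03, and 1 member was called after rescaling. That 1 was ALDH1L1, which oxidizes formyl-folate, at 5.23, 3.73 and 3.38 CPM against 0.925, 0.945 and 0.918 CPM (log2 fold change 1.67, SE 0.17, limma adjusted p = 0.00679). The folate enzymes MTHFD1L (0.46) and MTHFD1 (0.29) and PSAT1 were the other members that rose. Amino acid transporters had 2 of 20 higher, SLC7A1 and SLC6A9 for glycine, and 2 lower, the glutamate transporter SLC1A1 (-0.95) and the creatine transporter SLC6A8 (-0.48). Of 20 tRNA synthetases 2 rose, WARS and GARS, and 1 fell, KARS (-0.46). SLC6A9 lay at 0.50, and of the transporters and synthetases SLC1A1 alone was called after rescaling.

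The lysosome is the destination of many glycoproteins that UGGT1 reglucosylates, and few of its transcripts were called. Of 31 hydrolases of glycans and lipids 3 rose and 1 fell, beside 3.08% and 3.28% of all genes, with a median of 0.09. AGA, which cleaves the link between asparagine and N-glycans, stood at 17.9, 21.8 and 26.8 CPM against 12.9, 11.8 and 10.7 CPM (0.87, SE 0.17, limma adjusted p = 0.037). HGSNAT, an acetyltransferase for heparan sulfate breakdown, also rose (0.62), and AGA and HGSNAT were still called after rescaling. GLA, the alpha-galactosidase, fell by 0.75 on the log2 scale, from 119, 120 and 151 CPM in WT cells to 83.7, 74.3 and 71.5 CPM (adjusted p = 0.0211, limma, but 0.0531 after rescaling). Of 20 lysosomal peptidases 2 rose, CPQ (0.92) and the cathepsin CTSO (1.25), and CTSZ fell, while DPP7 was called only after rescaling (-0.69). The membrane and sorting proteins had 1 of 34 higher, the cholesterol exporter NPC1 (0.49), and 1 lower, the proton pump subunit ATP6V1F (-0.60). Both counts are near the shares of all genes. The study isolated substrates of UGGT1 from this very line. Of 65 transcripts for such substrates 3 rose and 2 fell, again near the shares of all genes, with a median of 0.10. The members that rose included NPC1 and FOXRED2, an ER flavoprotein linked to degradation (0.36), and those that fell were GLA and AGRN, the basement membrane protein agrin (-0.60). Of these 5, AGRN alone was called after rescaling, and of the membrane and sorting proteins 0 were.

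Among 21 immediate early genes 1 rose, ATF3, and 6 fell, beside 3.08% and 3.28% of all genes. After rescaling 0 rose and 5 fell, beside 2.20% and 2.58%. MYC, the growth-promoting factor, stood at 186, 192 and 168 CPM against 328, 342 and 284 CPM (log2 fold change -0.80, SE 0.10, limma adjusted p = 0.00992). ARC, a synaptic immediate early gene (-1.61), the AP-1 subunits FOSL1 (-1.44), FOSB (-0.68) and JUNB (-0.68), and CYR61, a matrix signaling protein (-0.59), were the others. FOSB lost its call after rescaling. Of 13 genes induced downstream of MAP kinases 3 fell, the factor ETV4 (-1.84), the phosphatase DUSP5 (-0.99) and the receptor kinase EPHA2 (-0.46), and 0 rose. The last of these was not called after rescaling.

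For all genes the shares were 3.08% higher and 3.28% lower (2.20% and 2.58% after rescaling), with a median of 0.03. Of 19 ID, SMAD and BMP genes 3 rose and 0 fell, with a median of 0.40, and after rescaling 4 rose and 1 fell. They were ID3, described above, ID1, an inhibitor of the same factors, and the feedback inhibitor SMAD6. ID1 stood at 7.79, 6.14 and 6.10 CPM against 2.77, 2.68 and 2.40 CPM (log2 fold change 1.20, SE 0.14, limma adjusted p = 0.00989). SMAD6 stood at 10.5, 9.498 and 9.09 CPM against 6.35, 6.30 and 5.51 CPM (0.64, limma adjusted p = 0.0353). BMP2, a ligand of the pathway that is not on the list, was among the largest rises. The rescaled values added the activin subunit INHBA (1.09) and, lower, the BMP antagonist NOG (-0.92). Notch genes had 0 of 18 higher and 4 lower, and 0 and 2 after rescaling. HES5 stood at 4.66, 3.85 and 3.46 CPM against 23.9, 28.3 and 22.5 CPM (-2.50, SE 0.15, limma adjusted p = 0.00221). NRARP, a Notch feedback regulator, stood at 22.5, 23.5 and 20.6 CPM against 62.3, 67.2 and 50.9 CPM (-1.41, SE 0.13). HES6 (-0.64) and the ligand DLL3 (-0.57) were called on the deposited values alone. HOX genes, which set position along the body axis, had 5 of 37 lower and 0 higher, with a median of -0.20, and the same counts after rescaling. HOXC12 (-1.41), HOXB5 (-1.03), HOXB4 (-0.81), HOXB8 (-0.71) and HOXC4 (-0.70) were the 5. WNT genes had 1 of 22 called, the antagonist NKD2 (-0.66), near the share of all genes. The kidney factor PAX2 (-0.86) and the neurofilament NEFL (-0.62), both typical of HEK293 cells, fell as well, and vimentin (VIM) rose (0.44), a call that was lost after rescaling (adjusted p = 0.0944, limma).

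Of 33 genes of the G1/S transition and DNA replication 5 rose and 0 fell, beside 3.08% and 3.28% of all genes. The list's median was 0.22 with 31 members above 0, and after rescaling 2 rose. The helicase subunit MCM5 stood at 372, 340 and 341 CPM against 171, 180 and 192 CPM (log2 fold change 0.95, SE 0.07, limma adjusted p = 0.00307). MCM3 (0.53), GINS3 (0.55), which belongs to the same helicase, CDC45 (0.34) and the sliding clamp PCNA (0.29) were the others. MCM5 and MCM6 (0.55, adjusted p = 0.0348) were those called after rescaling. Mitotic genes had 1 of 28 higher and 2 lower. The cyclin CCNB1 read 45.5, 45.5 and 45.1 CPM against 80.7, 81.7 and 76.8 CPM (-0.81, SE 0.07), whereas its homolog CCNB2 read 118, 113 and 107 CPM against 67.3, 68.1 and 76.4 CPM (0.67, SE 0.08, limma adjusted p = 0.0105). The call of CCNB2 was lost after rescaling (0.0504), when mitotic genes had 0 higher and 2 lower. UBE2C, which works with the anaphase-promoting complex, fell by 0.69 on the log2 scale. Replication-dependent histone genes had 2 of 10 higher and 0 lower, HIST1H2AC (0.73) and HIST1H4H (0.76), whose near-identical copies can share reads. Both lie on chromosome 6, where most genes lay above WT, as given further below. Targets of p53 had 3 of 23 higher, the cell cycle inhibitor CDKN1A (0.70), the quinone reductase TP53I3 (0.74) and TNFRSF10B, and 0 lower, none of them called after rescaling.

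Of 78 cytosolic ribosomal proteins 0 rose and 5 fell, beside 3.28% of all genes (RPL11, RPL5, RPL37, RPL14 and RPL22, -0.48 to -0.31), with a median of -0.19 and 6 members above 0, and none was called after rescaling. The replicates of these 5 did not overlap between the lines, which held for all 904 called genes and for 31.7% of all genes tested. Nuclear subunits of the respiratory chain had 2 of 48 lower, SDHA (-0.43) and ATP5F1 (-0.42), a share near that of all genes, with a median of -0.14 and 0 called after rescaling. Glycolysis and hypoxia genes had 3 of 30 lower, the lactate dehydrogenase LDHA (-0.54), GPI (-0.44) and the hypoxia-induced NDRG1 (-0.67), of which NDRG1 was called after rescaling. Mitochondrially encoded mRNAs, NRF2 targets, autophagy genes and imprinted genes had 0 of 13, 0 of 20, 0 of 26 and 0 of 9 called. Single members fell in 2 other lists, PSMA5 of the proteasome (-0.59) and the small heat shock protein HSPB1 (-0.46), neither of them called after rescaling.

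Among 24 interferon-stimulated genes 2 rose and 2 fell, beside 3.08% and 3.28% of all genes. After rescaling 0 rose and 1 fell, OAS3. OAS3, a sensor of double-stranded RNA, was listed at 0 in all 3 ALG6/UGGT2-/- libraries and at 4.83, 3.90 and 4.07 CPM in WT cells. The membrane protein IFITM2 fell by 0.85 on the log2 scale. HLA-B stood at 324, 306 and 290 CPM against 207, 209 and 225 CPM (0.52), with the caution that genes of this family share reads. Integrins had 1 of 16 higher, ITGB4 (0.70), and the list of collagens, laminins and basement membrane had COL6A3 higher and 3 of 30 lower, AGRN, COL18A1 (-0.41) and COL6A2 (-0.38). After rescaling COL18A1 and COL6A2 lost their calls (adjusted p = 0.119 and 0.137, limma) and LAMA5 was called (-0.59). Cholesterol and fatty acid synthesis had 1 of 31 genes higher and 1 lower, the desaturase FADS1 (-0.58), with 0 and 1 after rescaling. These counts are near the shares of all genes. Clustered protocadherins had 1 of 21 higher (PCDHGC4, 0.82) and 1 lower (PCDHB2, -1.20), with 3 and 2 after rescaling, and their shared exons make these levels uncertain.

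Without the 2 libraries that stood apart, where 19.2% of all genes were higher and 21.1% lower, the counts were larger in most lists. PERK and ATF4 targets then had 24 of 36 higher and 5 lower, replication genes 18 of 33 higher and 0 lower, and ID, SMAD and BMP genes 13 of 19 higher and 3 lower. Notch genes had 0 of 18 higher and 10 lower, HOX genes 0 of 37 higher and 18 lower, and ribosomal proteins 4 of 78 higher and 44 lower. ATF6 targets and ER chaperones had 2 of 15 higher and 7 lower, IRE1 and XBP1 targets 5 of 28 higher and 6 lower, and the UGGT1 substrates 21 of 65 higher and 18 lower. The directions that led in each of the first 6 of these lists were those seen with all libraries. This fit was chosen after seeing the data and keeps 2 libraries of each line, all of them also in the full fit. The shared directions are therefore no separate support.

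**Figure D3:**
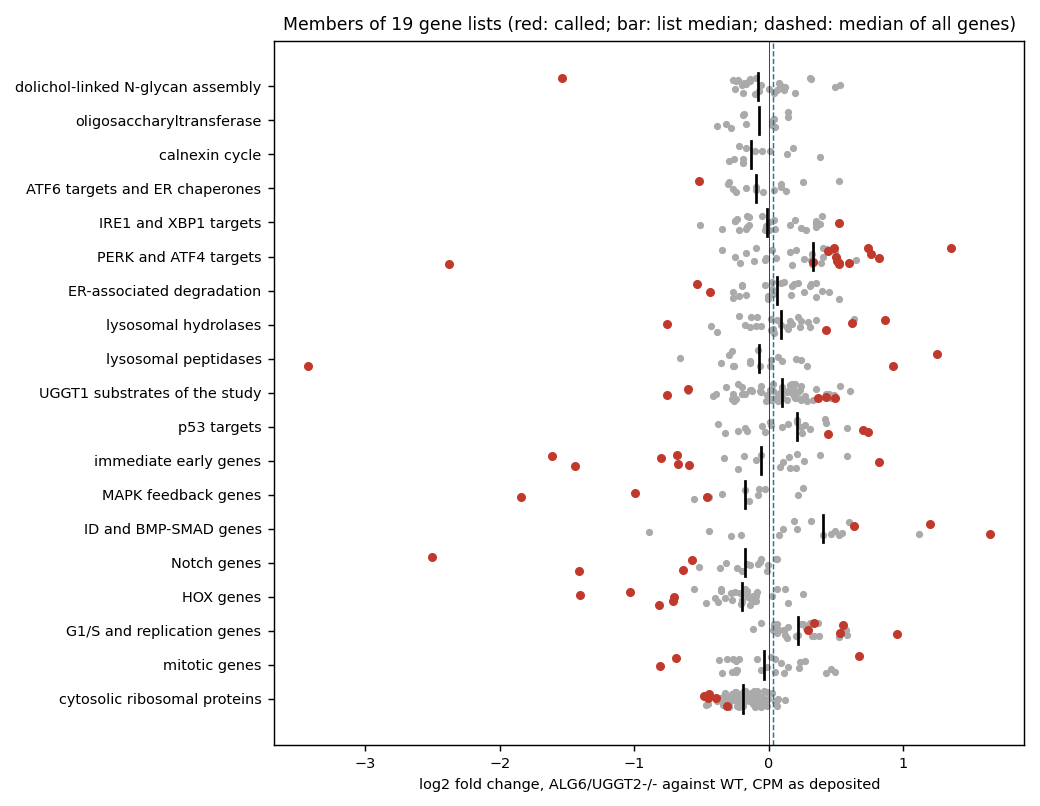
Log2 fold change of ALG6/UGGT2-/- against WT cells on the deposited values for the tested members of 19 gene lists, with called members in red, the others in gray, the list median as a black bar and the median of all genes (0.03) as a dashed line. The PERK and ATF4 targets have 12 red points to the right of 0, and the ID and BMP-SMAD genes have the highest median (0.40).

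The genes called were spread unevenly over the chromosomes. This was seen in the data first, so it is described and not tested. Of 315 tested genes on chromosome 22, 57 rose (18.1%, beside 3.08% of all genes) and 1 fell, and 89.2% lay above 0, compared with 54.7% of all genes. Their median was 0.29, and 0.33, 0.29 and 0.25 for ALG6/UGGT2-/- replicates 1, 2 and 3 taken singly, where all genes had -0.06, 0.08 and 0.09. After rescaling 22 rose and 0 fell. MICALL1, an endocytic recycling protein at 363, 350 and 356 CPM against 184, 174 and 186 CPM (0.97), the small GTPase RASL10A (1.28), the linker histone H1F0 (0.67), MCM5 and KLHDC7B lie there, as do ATF4, XBP1, CDC45 and FOXRED2. Chromosome 6 had 53 of 687 higher and 1 lower, with a median of 0.25, and 31 and 1 after rescaling. It carries HLA-B, CDKN1A, MCM3, MTHFD1L and MANEA. Chromosome 21 had 0 of 126 higher and 15 lower (11.9%, beside 3.28%), with a median of -0.14, and 12 lower after rescaling. Chromosome 10 had 27 of 515 higher and 9 lower, with a median of 0.23 and 79.8% above 0, and 17 and 9 after rescaling. ALG6/UGGT2-/- replicates 1, 2 and 3 taken singly had medians of 0.13, 0.31 and 0.33 on chromosome 6. They had -0.24, -0.08 and -0.10 on chromosome 21 and 0.06, 0.31 and 0.34 on chromosome 10. With the length and GC correction the medians of chromosomes 6, 21 and 10 were 0.19, -0.17 and 0.14. The same WT libraries set against the other lines gave chromosome 22 medians of -0.19 for ALG6-/-, 0.19 for ALG6/UGGT1-/- and 0.24 for ALG6/UGGT1/UGGT2-/- cells, where all genes had -0.45, 0.07 and -0.03.

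Some stretches of 10 Mb stood out further among the 236 with at least 20 tested genes. On chromosome 4 between 180 and 190 Mb (GRCh38), 10 of 25 genes rose and 0 fell, with a median of 0.57. SLC25A4, the ADP/ATP carrier of mitochondria, stood there at 82.7, 82.6 and 83.7 CPM against 46.9, 51.1 and 48.9 CPM (0.76). Between 60 and 70 Mb of chromosome 15, 12 of 66 rose and 0 fell (median 0.42), among them PCLAF, a partner of PCNA (1.10), and SMAD6. Lower genes clustered on chromosome 7 between 120 and 130 Mb, where 10 of 33 fell and 1 rose (median -0.50). IMPDH1, an enzyme of guanine nucleotide synthesis, read 47.6, 42.6 and 39.1 CPM there against 90.6, 92.4 and 93.2 CPM (-1.09), and METTL2B, an RNA methyltransferase, lay at -0.76. ATP6V1F, named above, lies in the same stretch. Between 0 and 10 Mb of chromosome 5, 7 of 30 fell and 1 rose (median -0.35), and between 40 and 50 Mb of chromosome 21, 12 of 51 fell and 0 rose (median -0.27). The last stretch holds SPATC1L, CBS, the protease BACE2 (-0.75), the kinase RIPK4 (-0.74) and the pyridoxal kinase PDXK (-0.47), with COL18A1 and COL6A2. The most falls of any stretch were on chromosome 9 between 130 and 140 Mb, where 21 of 105 fell and 0 rose (median -0.26). POMT1, MAN1B1 and DPP7 lie there. On chromosome 7, 5 of 42 genes fell and 2 rose between 140 and 150 Mb (median -0.28), where PDIA4 lies. Between 150 and 160 Mb 8 of 46 fell and 0 rose (median -0.29). Without the genes of chromosomes 22 and 6, 11 of 35 PERK and ATF4 targets rose and 1 fell, and 2 of 30 replication genes rose. Then 2 of 20 p53 targets, 0 of 18 interferon-stimulated genes, 0 of 25 IRE1 and XBP1 targets and 0 of 2 histone genes rose. After rescaling, 6 genes rose in the stretch of chromosome 4 and 8 in that of chromosome 15. In those of chromosomes 7 (120 to 130 Mb), 5, 21 and 9, 6, 5, 10 and 12 genes fell. Set against the same WT libraries, the medians in ALG6-/-, ALG6/UGGT1-/- and ALG6/UGGT1/UGGT2-/- cells were -0.58, 0.26 and 0.49 in the stretch of chromosome 4 and -0.41, 0.01 and 0.42 in that of chromosome 15. In those of chromosomes 7 (120 to 130 Mb), 5 and 21 they were -0.48, 0.05 and -0.41, -0.51, 0.02 and -0.28, and -0.12, -0.32 and -0.24, beside -0.45, 0.07 and -0.03 over all genes. The stretch of chromosome 9 had -0.14, -0.30 and -0.19. DNA copy number was not measured, and the part of chromosomal differences between the lines in these changes was not tested.

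**Figure D4:**
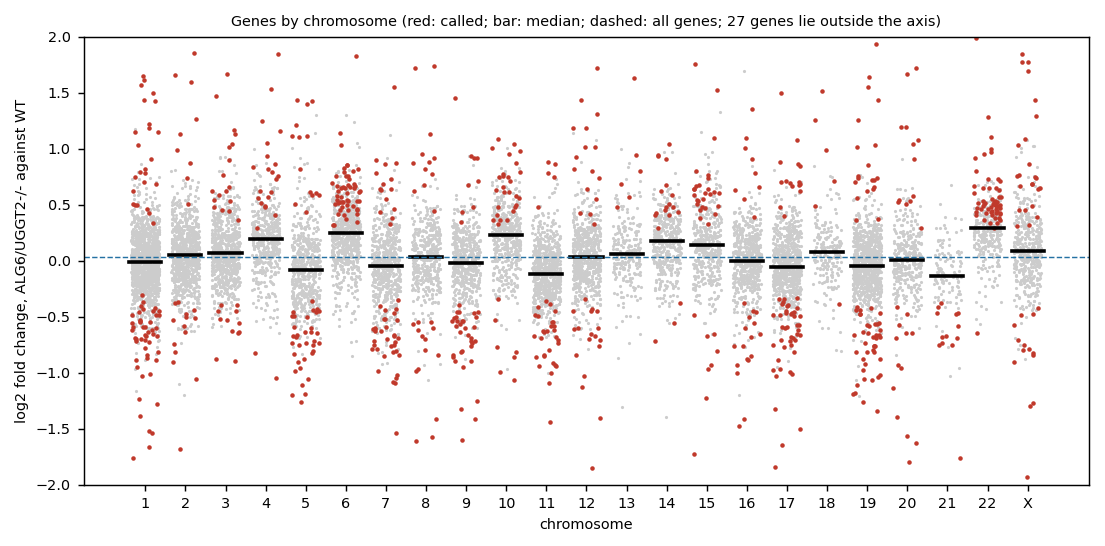
Log2 fold change of ALG6/UGGT2-/- against WT cells for each tested gene by chromosome, with called genes in red, the median of each chromosome as a black bar and that of all genes (0.03) as a dashed line. The bar of chromosome 22 stands at 0.29 and that of chromosome 21 at -0.14, and 27 genes lie beyond the axis limit of 2.

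Which of these levels also set ALG6/UGGT2-/- cells apart from the 3 other lines that lack ALG6 was asked in a fit of all 15 libraries, on 14692 genes, with the mean of those 3 lines as the reference. It shares the ALG6/UGGT2-/- libraries with the comparison above but no WT library. In it 3946 genes were higher and 2029 lower (26.9% and 13.8%), and after rescaling, which moved the median of all genes from 0.16 to 0.01, 2408 and 2332 (16.4% and 15.9%). PERK and ATF4 targets had 25 of 36 higher and 1 lower, with 23 and 1 after rescaling and 19 and 3 without ALG6-/- cells in the reference. ATF6 targets and ER chaperones had 1 of 15 higher and 11 lower, with 1 and 10 after rescaling and 0 and 11 when ALG6-/- cells were left out of the reference (17.7% and 11.6% of all genes). The oligosaccharyltransferase had 0 of 12 higher and 7 lower, and the calnexin cycle 2 of 12 higher and 7 lower, with the same counts after rescaling. With ALG6-/- cells left out these were 0 and 6, and 1 and 5.

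CHAC1 averaged 168 CPM in ALG6/UGGT2-/- cells and ranged from 7.19 to 8.15 CPM in ALG6-/-, from 143 to 149 CPM in ALG6/UGGT1-/- and from 48.3 to 56.1 CPM in ALG6/UGGT1/UGGT2-/- cells (log2 fold change 2.07, limma adjusted p = 1.31e-08; 0.92 without ALG6-/-). Its lowest level was thus in ALG6-/- cells, the highest in ALG6/UGGT2-/- cells. CTH averaged 119 CPM against 13.99, 170 and 23.2 CPM in the same 3 lines (1.62), and NUPR1 43.0 CPM against 9.61, 44.01 and 16.3 CPM (1.16). ATF3 (1.59), PPP1R15A (1.23) and XBP1 (1.04) were higher as well, with 1.26, 0.67 and 0.58 without ALG6-/- cells. ATF5 lay at 0.82, and at -0.37 without ALG6-/- cells (limma adjusted p = 0.00028). For ATF4 the difference of 0.28 became 0.12 after rescaling (adjusted p = 0.521). In most of these ALG6/UGGT1-/- cells were the neighbor in level, with means of 643 CPM for ATF3 and 625 CPM for XBP1 beside 764 and 590 CPM. CALR averaged 406 CPM against 749, 1071 and 2335 CPM in ALG6-/-, ALG6/UGGT1-/- and ALG6/UGGT1/UGGT2-/- cells (-1.60, limma adjusted p = 5.08e-08), PDIA4 199 CPM against 365, 428 and 545 CPM (-1.14) and MANF 41.3 CPM against 51.2, 79.0 and 98.7 CPM (-0.82). For these 3 chaperones the order of the means put ALG6/UGGT2-/- cells lowest of the ALG6-lacking lines.

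ALG6 itself averaged 4.67 CPM against 1.14, 2.87 and 2.96 CPM in the other knockout lines (0.93, limma adjusted p = 0.000283), all below the WT range. UGGT1 averaged 71.3 CPM against 43.8, 24.9 and 31.7 CPM (1.24, adjusted p = 0.0252), in lines of which the latter 2 carry the UGGT1 knockout, and ALG6-/- replicates spread from 13.1 to 83.9 CPM. UGGT2 averaged 14.6 CPM against 10.9, 17.99 and 14.3 CPM (0.05, adjusted p = 0.874). HES5 (-1.80) and NRARP (-1.52) were lower than in the other lines, and CCNB1 (-1.17) and ID1 (-1.13) too, with the highest means of all 4 genes in ALG6-/- cells. Without ALG6-/- cells these values were -0.65, -0.94, -0.90 and -0.47. ID3 was lower against the 3 lines (-0.44) and level with them without ALG6-/- cells (0.08, adjusted p = 0.489), and the same held for CBS (-0.56, and 0.29 with adjusted p = 0.164). CXCR4 lay at -1.15, and at -0.26 without ALG6-/- cells (adjusted p = 0.0514).

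Several of the genes near 0 in ALG6/UGGT2-/- cells were near 0 in 1 or 2 other knockout lines. ZNF22 was at 0.0754 to 0.156 CPM in ALG6/UGGT1/UGGT2-/- cells but 4.92 to 9.45 CPM in ALG6-/- and 16.5 to 20.01 CPM in ALG6/UGGT1-/- cells. GSTM4, OAS3, CLIP3 and POMT1 were likewise lowest in ALG6/UGGT1/UGGT2-/- cells among these 3 lines, and POMT1 averaged 2.29 CPM in ALG6/UGGT1/UGGT2-/- cells beside 39.7 and 44.2 CPM. CTSZ reached 35.3 to 37.5 CPM in ALG6/UGGT1-/- cells alone and did not pass 0.0424 CPM in either other line. SPATC1L averaged 15.4 CPM in ALG6-/- cells and 0.173 and 0.214 CPM in the other 2. Of the rises, TNFRSF9 averaged 74.5 CPM beside 101 CPM in ALG6/UGGT1-/- cells but 2.91 and 6.68 CPM in ALG6-/- and ALG6/UGGT1/UGGT2-/- cells, S100P 12.3 CPM beside 9.77, 0.565 and 0.54 CPM in that order of lines, KLHDC7B 15.5 CPM beside 8.44, 0.195 and 6.95 CPM, and IGLON5 13.6 CPM beside 12.3 CPM in ALG6/UGGT1/UGGT2-/- cells and under 1.8 CPM in the remaining lines.

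**Figure D5:**
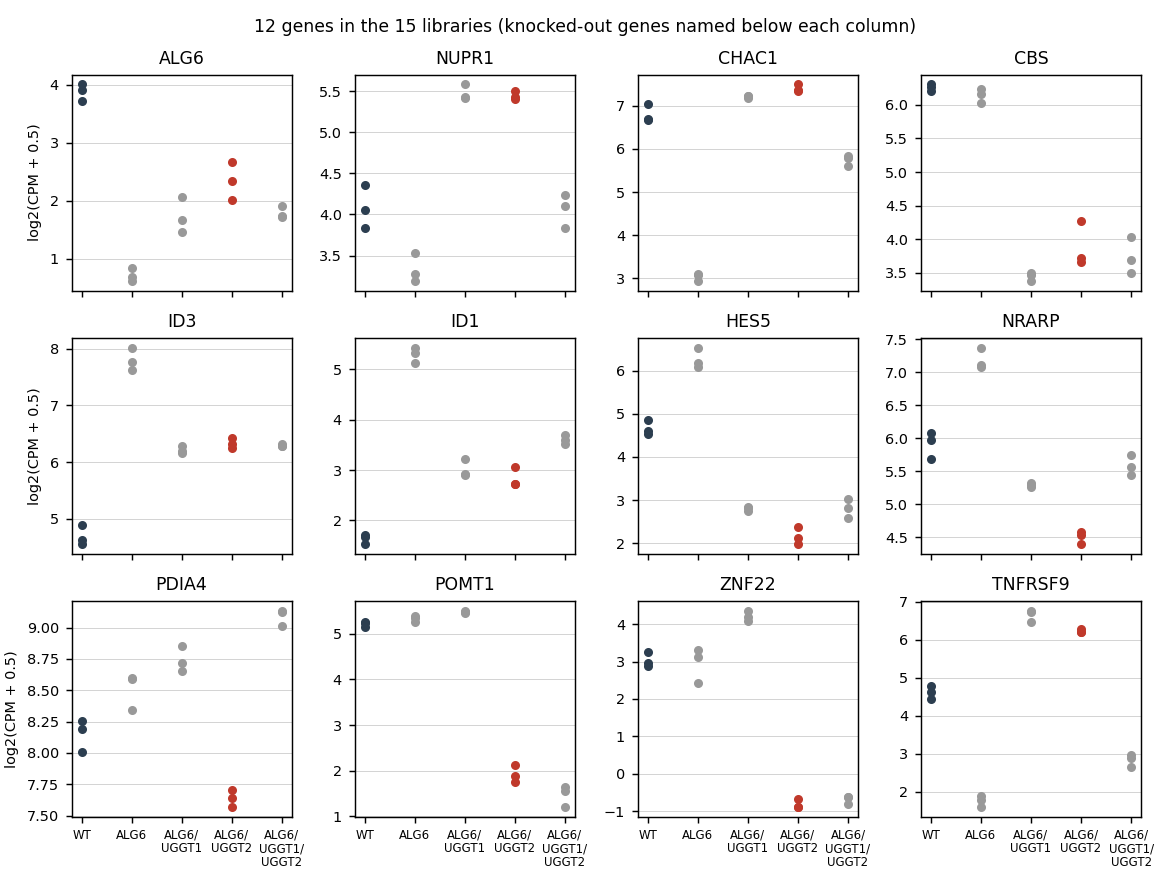
Level as log2(CPM + 0.5) of 12 genes in all 15 libraries, with 1 point per replicate and the knocked-out genes named below each column (dark for WT, red for ALG6/UGGT2-/-, gray for the other knockout lines). ZNF22 and POMT1 are low in ALG6/UGGT2-/- and ALG6/UGGT1/UGGT2-/- cells, and CHAC1 is lowest in ALG6-/- cells.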

How the data were processed

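RNA of the HEK293-EBNA1-6E lines was measured as poly(A) transcripts. Per the methods of the study, the authors built directional NEBNext UltraII libraries, read them as pairs of 76 bases on a NextSeq 500 in 4 lanes per library, aligned them to hg38 with STAR, quantified them with RSEM and normalized them to CPM (counts per 1000000) with edgeR. Tool versions are not given in the sources used here. The deposited CPM table holds the lanes of each library combined in 15 columns. Its 8 columns without a header, with 2 stray values, were left out, and 28 gene names had turned into dates. Between 90.42% and 90.83% of the values in the 6 libraries were whole reads within a tolerance of 0.02, so no count test was run. The 24420000 to 26180000 reads per library limit the precision of levels under about 1 CPM.

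Values entered limma 3.58.1 (R 4.3.3) as log2(CPM + 0.5), so that fold changes of low genes are understated. The filter asked for 1 CPM or more in 3 or more of the 6 libraries, and the cell line was the only factor, with a variance that follows the mean. P-values were adjusted over all genes tested by the Benjamini-Hochberg method, and called means under 0.05. The fit was also run on simulated counts with the same relative spread for every gene and no shift of a library in scale or GC content. That setting lacks the shifts of WT replicate 3 and ALG6/UGGT2-/- replicate 1, so it does not vouch for calls that depend on them. The contrast with the other ALG6-lacking lines used all 15 libraries. Genes named are the targeted genes, the 15 largest rises and 15 largest falls called the same way as deposited and rescaled, without overlap and with at least 5 CPM in the higher line (16 names that are clone or contig identifiers were left out of 372 candidates), the members with the smallest p in every list (5 at most), and genes at or near 0 in one line. Genes named by chromosome, in the last paragraphs on other lines or in the closing section were chosen after their values were seen. So were DDIT3, TRIB3 and any other list member named beyond the 5 of smallest p. The lists were chosen with earlier results of these data known, and the study chose its UGGT1 substrates in this line. Of 1170 list genes 1166 matched a listed name. Chromosomes and lengths came from GENCODE release 44 on GRCh38 (91.9% of tested genes), promoters from RefSeq.

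Replicate numbers were not taken to pair the samples, since the deviations of same-numbered libraries correlated at -0.77, 0.48 and -0.62. The alternatives were median-ratio rescaling, pseudocounts of 0.1 and 2, no filter, a mean of at least 5 CPM, quantile normalization, a fit of all libraries, a replicate block, no variance trend, a minimum log2 fold change of 1, a length and GC correction and leaving out each replicate. Leaving out the 2 libraries that stood apart was added after seeing the data. Some genes of the lists are not reported here.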

Additional observations from a re-analysis of the deposited data

How the results depend on the processing

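Of the 904 genes called, 0 changed sign under any setting that could be fitted. On the deposited values 438 were higher and 466 lower. A fit of all 15 libraries called 1997 (890 higher, 1107 lower), a correction for length and GC content 2327 (1233 and 1094), a minimum log2 fold change of 1 called 14 (1 and 13), and a mean of at least 5 CPM left 289 higher. Leaving out 1 replicate at a time gave 83 to 1799 calls, 29 to 791 of them higher and 54 to 1008 lower. The lowest counts came without ALG6/UGGT2-/- replicate 2 and the highest without WT replicate 3. Leaving out WT replicate 3 and ALG6/UGGT2-/- replicate 1, chosen after seeing the data, gave 5727 (2731 and 2996), with rescaling 6025 (2997 and 3028) and with the length and GC correction 6709 (3474 and 3235). The cause of these differences was not tested.

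Of the 228 genes that the naming rule picked 121 were called, and of 970 list members 101. Rescaling left 79 and 59, the minimum fold change 8 and 3, and leaving out single replicates gave 31 to 150 and 11 to 179. The fit of all libraries called 184 list members and the length and GC correction 182. Without the 2 libraries the counts were 213 and 510, with rescaling 214 and 505 and with the correction 216 and 604.

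The replicate number as a block left 9 calls (1 higher, 8 lower), 7 of the named genes and 2 list members. With length and GC correction beside the block these were 239 (120 and 119), 51 and 28. The labels do not say whether replicate numbers pair the samples, and the deviations of same-numbered libraries differed in sign. Whether a call lost under the block is a weaker effect therefore cannot be told, and the drop to 9 remains a limit of the calls.

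Directions reversed for UGGT1, whose log2 fold change of 0.13 became -0.00916 with the correction and also with the block and the correction, -0.0323 without the 2 libraries, -0.0259 with rescaling in addition, -0.0704 with the correction in addition, and ran from -0.16 to 0.28 over the replicates left out. DDIT3 ran from -0.098 to 0.0506 in the same way. Against the other ALG6-lacking lines, rescaling left 2408 higher and 2332 lower genes, leaving out ALG6-/- cells 2596 higher, and the length and GC correction, added after seeing the data, gave 3354 lower. There UGGT2 reversed from 0.05 to -0.10 after rescaling, -0.14 without ALG6-/- cells, -0.26 with the correction and -0.10 to 0.22 over the replicates, while ID3, CBS and ATF5 reversed to 0.0799, 0.29 and -0.37 without ALG6-/- cells.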

Other observations

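Some genes below the level set for the largest changes moved as far, and were chosen after their values were seen. MYOCD, a coactivator of smooth muscle genes, stood at 1.83, 3.44 and 3.38 CPM in ALG6/UGGT2-/- cells against 0.282, 0.354 and 0.16 CPM in WT cells (log2 fold change 2.11 on the log2(CPM + 0.5) scale, SE 0.24, limma adjusted p = 0.00832). The zinc finger gene ZIK1 was at 0.0764, 0 and 0.194 CPM in ALG6/UGGT2-/- and at 4.87, 5.00 and 2.83 CPM in WT cells (-2.98, SE 0.24), and FRRS1L, a protein of AMPA receptor assembly, was at 0.0382, 0 and 0.0777 CPM against 3.74, 2.52 and 1.72 CPM (-2.50, SE 0.24). All 3 were called after rescaling. In the other lines ZIK1 averaged 2.38 CPM in ALG6-/-, 0.0805 CPM in ALG6/UGGT1-/- and 0.0503 CPM in ALG6/UGGT1/UGGT2-/- cells.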
